A study of Mus musculus with 5 samples.

Results

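The nuclear-encoded respiratory chain subunits are the proteins of complexes I to IV and of the ATP synthase (complex V) that are made from nuclear genes and imported into mitochondria. Members were all genes whose symbol begins with Nduf followed by a, b, c, s or v, with Uqcr, with Cox followed by a digit of 4 to 8, or with Atp5, and the genes Sdha, Sdhb, Sdhc and Sdhd. This rule took 94 of the 32285 genes counted. It used no measured value. By symbol, 39 members were named as complex I subunits, 4 as complex II, 8 as complex III, 18 as complex IV and 17 as complex V, and 8 were Ndufaf genes, which help to assemble complex I without staying in it. Ndufa4 and Ndufa4l2 keep a complex I name but are now counted with complex IV, and Ndufb1-ps is annotated in GENCODE M21 as a bidirectional promoter lncRNA. At least 100 molecules over all T cell barcodes were counted for 89 members, which are called measured here. The unmeasured members were Cox7a1, Cox7b2, Cox8b, Cox8c and Ndufa4l2.

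Complex I takes electrons from NADH and complex II takes them from succinate, and both pass them through ubiquinone to complex III, from there through cytochrome c to complex IV, and so to oxygen. Complexes I, III and IV pump protons, and the ATP synthase uses the resulting gradient to make ATP. Complexes I, III, IV and V also hold subunits made from the mitochondrial genome, whereas complex II holds none. Resting naive T cells live mainly by oxidative phosphorylation, and T cells that receive an antigen signal expand their mitochondria while they raise glycolysis.

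RNA of single cells was counted in 5 mouse samples by the 5' method of 10x Genomics, where a barcode marks a cell and a unique molecular identifier (UMI) marks a captured RNA molecule. The cultures were OT-II CD4 T cells with apCAFs of the pancreatic tumor clone rKPC and OVA, the same with DMSO in place of OVA, OT-II cells with apCAFs of the clone sKPC and OVA, the same with DMSO, and OT-II cells alone. OT-II cells are T cells with a transgenic receptor for an ovalbumin (OVA) peptide, here taken from the spleen of 1 naive OT-II mouse, and apCAFs are antigen-presenting cancer-associated fibroblasts, here sorted from dissociated mouse tumors. Coculture lasted overnight, and the sources used here do not give the animals' age. Each group had 1 sample. The counts came as 2 aggregated matrices, called G and H here, whose barcodes carried 3 and 2 library suffixes where the labels list 2 and 3 samples, so which suffix belongs to which sample could not be worked out. The 5 libraries (Ga, Gb, Gc, Ha, Hb) were therefore kept without a group, and no contrast of coculture, clone or peptide was made.

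T cell barcodes (Cd3+) had at least 500 UMIs, at most 10% mitochondrial UMIs and at least 1 UMI of Cd3d, Cd3e or Cd3g. There were 22874 of them among 25623 barcodes. Libraries held between 27339447 and 61279131 UMIs, with a median of 7928 (Gb) to 8767.5 (Ga) UMIs per Cd3+ barcode, and any pair of libraries shared between 2 and 14 barcode sequences. Cd3+ barcodes were divided into those with a UMI of Irf4 or Nr4a1, which T cells switch on after engagement of the T cell receptor (TCR), and those with none, written Irf4/Nr4a1+ and Irf4/Nr4a1- below. The Irf4/Nr4a1+ share was 25.2% in Ga (1322 of 5236) and 22.5% in Gc (1446 of 6419). It was 2.21% in Gb (68 of 3081), 2.05% in Ha (86 of 4200) and 1.30% in Hb (51 of 3938). With each barcode thinned to 1500 UMIs the shares were 14.9% (Ga), 12.6% (Gc), 0.670% (Gb), 0.571% (Ha) and 0.235% (Hb). In 164 erythroid barcodes without a Cd3 UMI, which should lack both genes, the share was 3.66% (exact 95% interval 1.35 to 7.79), at a median of 8667 UMIs. The 6 such barcodes were 4 of 35 in Gc, 1 of 32 in Ga, 1 of 34 in Ha, 0 of 34 in Gb (which allows up to 8.82%) and 0 of 29 in Hb (up to 10.3%), and without Gc the share was 1.55% (2 of 129, 0.188 to 5.49). The shares of Gb, Ha and Hb lay below the pooled value and inside the interval found without Gc, so at this number of erythroid barcodes they cannot be told apart from background. The shares of Ga and Gc lay above the pooled interval. No interval was computed for the erythroid barcodes of Gc alone, where 4 of 35 are too few to place its own background. Their Irf4/Nr4a1+ sets held 51 to 86 barcodes, and the results below rest on Ga and Gc. A check list of other TCR response genes (Nr4a3, Egr1, Egr2, Il2ra, Cd69, Myc) summed to 2119 CPM (UMI counts scaled to depth) in Irf4/Nr4a1+ barcodes of Ga, against 78.5 CPM in Irf4/Nr4a1- barcodes. In Gc the same sums were 2031 and 90.8 CPM. They were 223 against 43.9 CPM in Gb, 259 against 40.3 CPM in Ha and 362 against 38.9 CPM in Hb, so the list was higher in the Irf4/Nr4a1+ set of every library and less so in these than in Ga and Gc. All CPM values below are UMIs of a gene or list divided by all UMIs of that set of barcodes and multiplied by 1000000, so they describe the share of a cell's RNA and not its amount. Intervals are exact 95% intervals of counting error and cover no difference between cultures, animals or cells.

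The 250 bases upstream of the RefSeq start site were available for 75 of 94 members (matched by symbol, build GRCm38.p6). Of these windows 4 are shown, because they set members that were higher in Irf4/Nr4a1+ barcodes beside a member that was lower. The Ndufaf4 window lies at chr4:24897833-24898082 on the plus strand, that of Ndufb6 at chr4:40279422-40279671 on the minus strand, that of Atp5md at chr19:47090648-47090897 on the minus strand and that of Uqcrh at chr4:116075071-116075320 on the minus strand. Each is written 5' to 3' on the strand of its gene, and capitals mark a match to the letters of NRF1 or ETS/GABP, factors known for promoters of respiratory chain genes.
Ndufaf4: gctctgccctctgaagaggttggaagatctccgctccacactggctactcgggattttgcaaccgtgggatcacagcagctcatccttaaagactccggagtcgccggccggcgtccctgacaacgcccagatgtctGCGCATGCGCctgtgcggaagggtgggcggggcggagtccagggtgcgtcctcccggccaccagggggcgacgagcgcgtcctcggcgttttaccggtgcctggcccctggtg
Ndufb6: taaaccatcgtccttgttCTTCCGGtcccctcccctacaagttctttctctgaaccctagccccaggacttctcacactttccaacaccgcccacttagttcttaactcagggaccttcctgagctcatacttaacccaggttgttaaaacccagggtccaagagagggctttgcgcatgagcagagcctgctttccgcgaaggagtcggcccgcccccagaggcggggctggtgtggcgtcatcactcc
Atp5md: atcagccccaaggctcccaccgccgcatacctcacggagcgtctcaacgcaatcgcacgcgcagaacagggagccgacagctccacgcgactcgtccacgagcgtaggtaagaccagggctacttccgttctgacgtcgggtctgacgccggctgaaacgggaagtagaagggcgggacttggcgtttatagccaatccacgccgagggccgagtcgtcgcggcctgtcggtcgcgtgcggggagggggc
Uqcrh: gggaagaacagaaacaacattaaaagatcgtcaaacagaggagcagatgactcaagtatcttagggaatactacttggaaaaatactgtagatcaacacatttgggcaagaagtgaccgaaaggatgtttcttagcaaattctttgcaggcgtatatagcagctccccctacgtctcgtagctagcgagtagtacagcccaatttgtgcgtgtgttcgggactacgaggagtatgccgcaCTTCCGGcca

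The NRF1 motif, searched on both strands with any base allowed at 1 position, occurred in the windows of 14 of 75 members (18.7%), against 4.23% of 27025 genes with a window. The ETS/GABP letters CCGGAAG occurred in 14 of 75 members (18.7%), against 7.83% of all genes. The SP/KLF letters GGGCGG were in 30 members (40% against 35.4%), the E-box CACGTG in 5 (6.67% against 6.86%), the CRE letters TGACGTCA in 4 (5.33% against 1.77%) and the YY1 letters AAGATGGC in 1 (1.33% against 1.83%). No string contains another. Members on both sides carried NRF1, ETS/GABP and SP/KLF letters. Of the 38 windows of members higher in both Ga and Gc (defined below) 8 held NRF1 letters and 8 held ETS/GABP letters, and of the 4 windows of members lower in both, 1 held NRF1 letters (Atp5h) and 2 held ETS/GABP letters (Uqcrh and Atp5h). The CRE, E-box and YY1 letters were in 4, 3 and 1 of the 38 and in none of the 4, which are few windows to compare. In the printed windows, Ndufaf4 carries NRF1 letters, Ndufb6 and Uqcrh carry ETS/GABP letters, and Atp5md carries neither. A match is a description of letters, not a binding site.

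Over all Cd3+ barcodes the 94 members together differed little between the libraries. Their summed level was 9727 CPM (Ga), 8465 CPM (Gb), 9030 CPM (Gc), 9112 CPM (Ha) and 9019 CPM (Hb). Ga stood highest and Gb lowest, 0.20 apart on the log2 scale (0.193 to 0.208), and Gc, Ha and Hb lay close together. Among Irf4/Nr4a1- barcodes alone the libraries lay 0.12 apart (Ha over Gb). The level of a single member differed by a median of 0.27 log2 between its highest and lowest library, against 0.39 over all genes counted often enough. Of 89 measured members 31 spanned at least 0.32 log2, against 58.4% of all genes, and 8 spanned at least 1.5-fold, against 31% of all genes.

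Irf4/Nr4a1+ T cells devoted more of their RNA to the respiratory chain than Irf4/Nr4a1- T cells of the same library in Ga and Gc. In Ga the members summed to 11646 CPM in Irf4/Nr4a1+ barcodes, against 8899 CPM in Irf4/Nr4a1- barcodes, a log2 ratio of 0.39 (0.380 to 0.397). In Gc the sums were 10667 and 8393 CPM, a log2 ratio of 0.35 (0.338 to 0.354). Per barcode, the members took a median of 1.10% of UMIs in Irf4/Nr4a1+ barcodes of Ga (quartiles 0.874 and 1.35%), against 0.873% in Irf4/Nr4a1- barcodes (quartiles 0.757 and 0.997%). In Gc the medians were 0.982% and 0.830%. The quartile ranges of the 2 sets of barcodes overlapped in both libraries. Irf4/Nr4a1+ barcodes of Ga were deeper, with a median of 10198 UMIs against 8410. Their mean number of member UMIs per barcode was 128.9 against 77.2, and the median was 112.5 against 74. A division by the presence of a UMI favours deep barcodes, and the medians were also 9006 against 7912 in Gb, 9724.5 against 8328.5 in Ha and 9820 against 8209 in Hb.

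In the other libraries the values were smaller or rested on few barcodes. The sums were 10932 CPM in Irf4/Nr4a1+ barcodes of Gb, against 8350 CPM in Irf4/Nr4a1- barcodes, 10423 against 9074 CPM in Ha, and 9569 against 9010 CPM in Hb, or log2 ratios of 0.39, 0.20 and 0.09. In Gb, 2 of the 68 Irf4/Nr4a1+ barcodes had over 100000 UMIs, held 40.8% of the UMIs of that set and 340 UMIs of fibroblast genes. Without barcodes of that size the log2 ratio in Gb was 0.14, and with each barcode thinned to 1500 UMIs it was -0.0670 in Gb, 0.0110 in Ha and -0.0121 in Hb, against 0.41 in Ga and 0.41 in Gc.

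**Figure D1:**
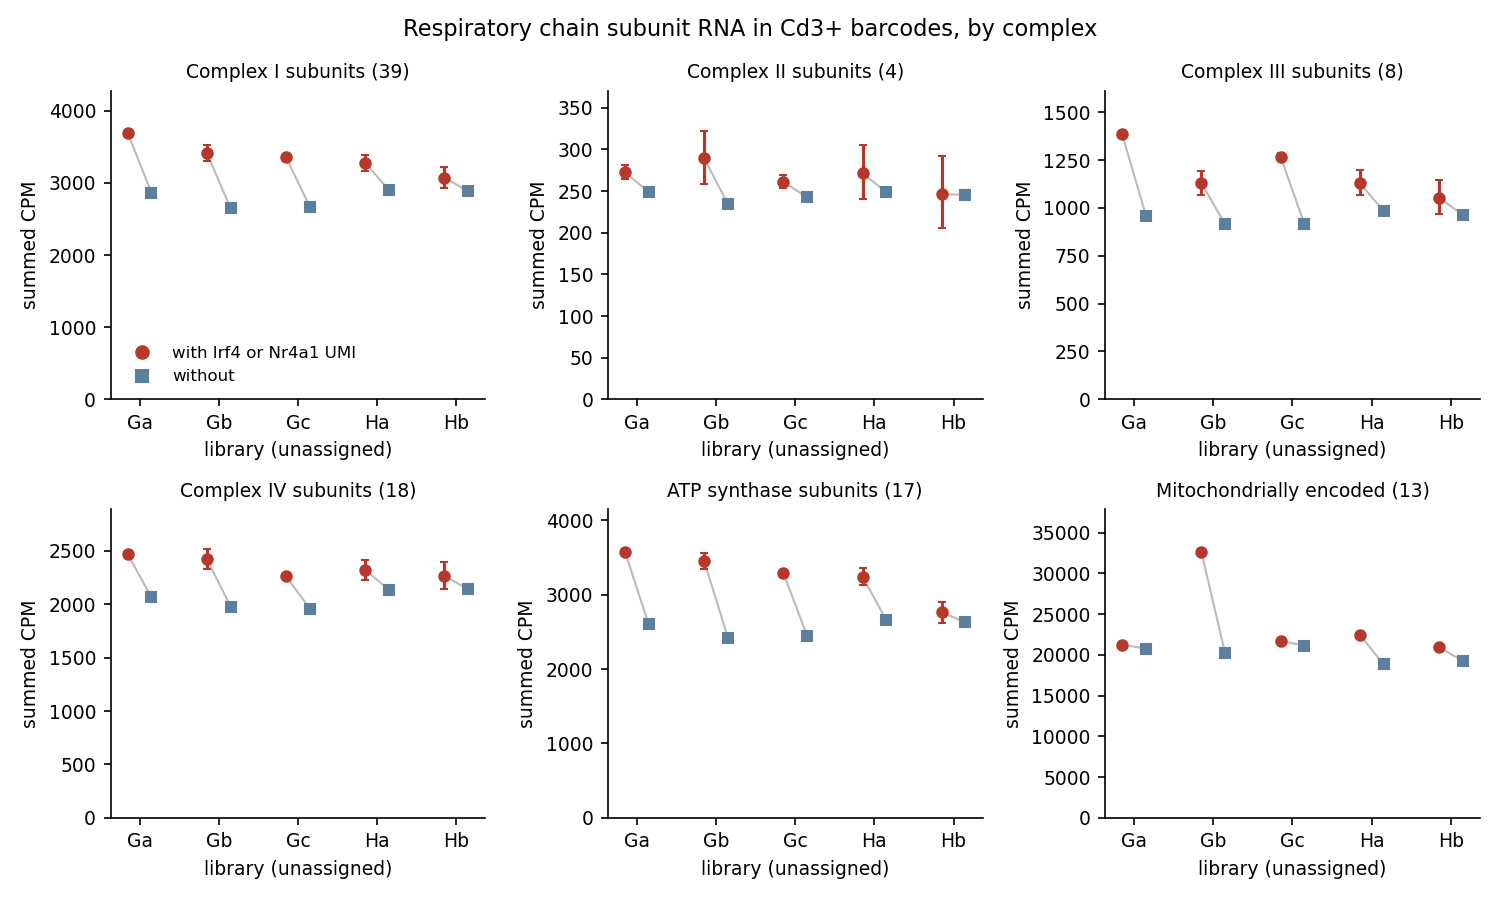
Summed level (CPM, linear axis from 0) of the members of each complex and of the 13 mitochondrially encoded subunits in Irf4/Nr4a1+ (circles) and Irf4/Nr4a1- (squares) barcodes of the 5 unassigned libraries, with exact 95% counting intervals. In Ga, complex I stood at 3692 against 2866 CPM and the mitochondrially encoded subunits at 21249 against 20775 CPM.

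RNA of other cell types and of T cell subsets differed between the 2 sets of barcodes as well, and its part in the result was not tested beyond the values given here. The 6 myeloid markers summed to 188 to 914 CPM in Irf4/Nr4a1+ barcodes of the 5 libraries, against 51.0 to 116 CPM in Irf4/Nr4a1- barcodes, with C1qa at 0 in all Irf4/Nr4a1+ sets except that of Ga. The 6 fibroblast markers summed to 0 to 303 CPM against 0.766 to 42.6 CPM, and in Ga to 2.39 against 2.62 CPM. The 5 B cell markers summed to 8.79 to 582 CPM against 5.82 to 13.5 CPM. The 8 erythroid markers summed to 46.5 to 7385 CPM against 352 to 1475 CPM, the 5 neutrophil markers to 0.879 to 183 CPM against 2.64 to 100.4 CPM and the 4 NK markers to 8.47 to 18.5 CPM against 8.45 to 12.5 CPM. These ranges hide differences within a library. Erythroid markers were lower in Irf4/Nr4a1+ barcodes of Ga (46.5 against 1475 CPM) and Gc (562 against 1084 CPM) and higher in Ha (7385 against 352 CPM). Myeloid markers were higher in Ga (199 against 51.0 CPM) and Gc (188 against 74.0 CPM). A UMI of Cd4 was held by 44.9% of Irf4/Nr4a1+ barcodes of Ga, against 63.9% of Irf4/Nr4a1- barcodes, and by 46.7% against 63.7% in Gc. A UMI of the gamma-delta receptor gene Trdc was held by 13.6% against 22.5% in Ga and by 12.1% against 20.3% in Gc. Foxp3, a regulatory T cell gene, had a UMI in 2.50% against 2.40% of barcodes in Ga and in 2.63% against 1.91% in Gc. The difference was larger in Gb (8.82% against 1.53%), Ha (15.1% against 1.97%) and Hb (7.84% against 1.44%), so the small Irf4/Nr4a1+ sets differed in make-up from those of Ga and Gc. With barcodes limited to those with a UMI of Cd4 and none of Trdc, the log2 ratio of the members was 0.31 in Ga and 0.25 in Gc. Without barcodes that held RNA of other cell types it was 0.36 in Gc.

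The members did not move as 1 block. In Ga 50 of 86 members counted often enough (at least 25 UMIs expected in the Irf4/Nr4a1+ set) had a log2 ratio of at least 0.32 and are called higher in Irf4/Nr4a1+ barcodes, where 28.1% of all genes were, and 4 had a log2 ratio of -0.32 or less and are called lower, where 33.3% of all genes were. In Gc 48 of 86 were higher, against 29.5% of all genes, and 5 were lower, against 29.7%. At a 1.5-fold threshold 27 members were higher in Ga, against 18.2% of all genes, and 1 was lower, against 20.4%. In Gc 24 were higher at 1.5-fold, against 18.8% of all genes, and 1 was lower, against 16.6%. The median member had a log2 ratio of 0.39 in Ga and 0.37 in Gc, while the median of all genes was -0.05 in Ga and -0.01 in Gc. In both libraries 44 members were higher, which is 88% of those of Ga and 91.7% of those of Gc, against 24.5% of all genes. The 4 members lower in both libraries, against 26.4% of all genes, were Uqcrh, Atp5h, Ndufa6 and Cox7a2l. The log2 ratios of the 86 members in Ga and Gc had a Pearson correlation of 0.985, given as a description since both libraries come from 1 matrix and 1 chemistry. The largest difference between the 2 libraries for a member was 0.29 log2.

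In the libraries with few Irf4/Nr4a1+ barcodes, 47 of 79 members were higher by the same threshold in Gb (29.6% of all genes) and 4 were lower (32.3%). Over the alternatives the Gb count of higher members ran from 0 to 52. It was 22 without barcodes above 100000 UMIs, 11 with equal weight per barcode and 4 without the 6% of barcodes with the most UMIs. Shares of all genes under these settings were not computed. In Ha 30 of 79 were higher (21.7%) and 2 were lower (18.7%), and in Hb 10 of 67 were higher (14.2%) and 2 were lower (14.3%). Of 67 members counted often enough in all 5 libraries, 37 had a ratio above 1 in each library, against 15.3% of all genes, and 3 had a ratio below 1 in each, against 22.2% of all genes (Ndufa6, Ndufv3 and Cox7a2l).

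**Figure D2:**
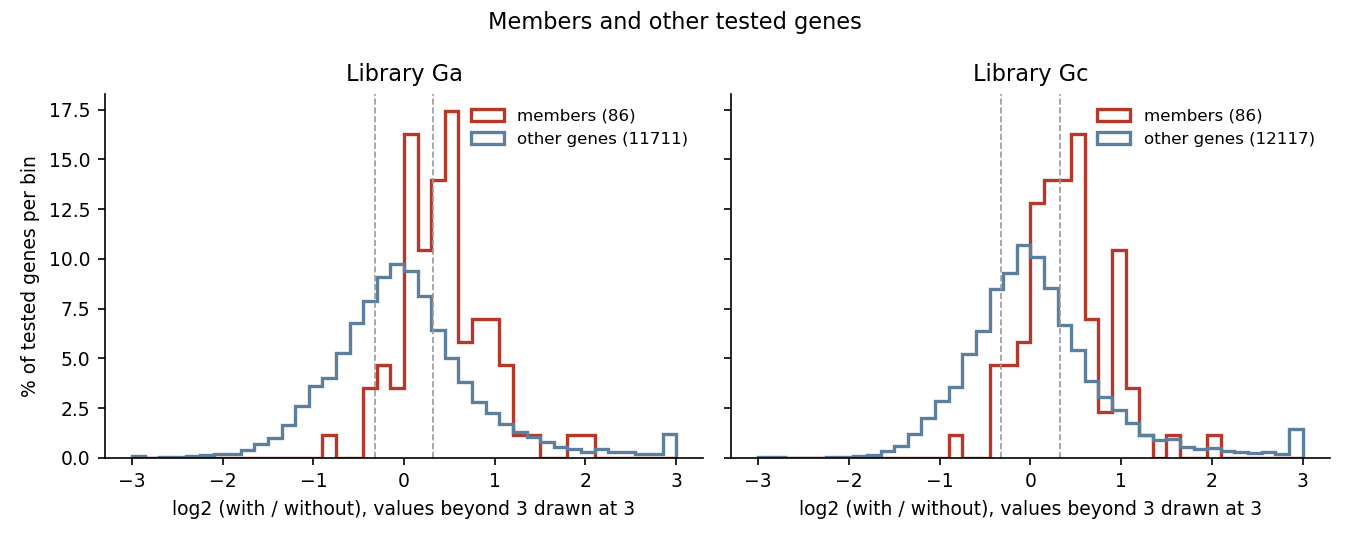
Share of tested genes (%, y axis) by log2 ratio of CPM in Irf4/Nr4a1+ over Irf4/Nr4a1- barcodes (x axis) for the 86 members and for all other tested genes in Ga and Gc, with dashed lines at -0.32 and 0.32. The members' distribution lies to the right of that of the other genes, with medians of 0.39 (Ga) and 0.37 (Gc), and 4 and 5 members lie left of the lower dashed line.

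Complex I, the NADH dehydrogenase, was higher as a whole in Irf4/Nr4a1+ barcodes. Its 39 subunit genes summed to 3692 CPM in Irf4/Nr4a1+ barcodes of Ga, against 2866 CPM in Irf4/Nr4a1- barcodes (log2 ratio 0.37), and to 3357 against 2669 CPM in Gc (0.33). In Ga 21 of 38 tested subunits were at least 0.32 log2 higher (28.1% of all genes) and 1 was lower (33.3%). In Gc 20 were higher (29.5%) and 2 lower (29.7%). Among the core subunits, which carry the flavin and the iron-sulfur centres, Ndufs8 stood at 70.2 CPM in Irf4/Nr4a1+ barcodes of Ga, against 32.6 CPM, and at 58.6 against 30.8 CPM in Gc. Ndufs1, the largest subunit, stood at 55.6 against 51.5 CPM in Ga and at 53.7 against 53.9 CPM in Gc, so core subunits of the same arm differed from each other.

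The accessory subunits spread more widely. Ndufa12 (chr10:94198720-94221443, plus strand), which sits on the matrix arm, stood at 126 CPM in Irf4/Nr4a1+ barcodes of Ga, against 49.2 CPM in Irf4/Nr4a1- barcodes, a log2 ratio of 1.36 (1.26 to 1.45). In Gc Ndufa12 stood at 115 against 45.1 CPM, a ratio of 1.346 (1.253 to 1.438). Across all 5 libraries Ndufa12 was between 51.8 and 126 CPM in Irf4/Nr4a1+ barcodes and between 45.1 and 50.1 CPM in Irf4/Nr4a1- barcodes. Its Irf4/Nr4a1+ level was the higher of the pair in each, as for 15.3% of genes counted often enough in all 5. Ndufb6, whose upstream window is printed above, stood at 79.0 against 34.1 CPM in Ga and at 68.9 against 32.6 CPM in Gc. Ndufa5 stood at 109 against 47.4 CPM in Ga and at 92.0 against 43.4 CPM in Gc. Both were over 2-fold higher in each of these libraries, whereas in Hb, where Ndufb6 had too few UMIs to be counted among the tested members, it stood at 29.6 against 34.2 CPM. Ndufs6 had a log2 ratio of 0.95 in Ga and 0.95 in Gc, and Ndufc2, of the membrane arm, had 0.98 and 0.90. Ndufab1, the mitochondrial acyl carrier protein, had 0.93 and 0.97.

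Ndufa6, an accessory subunit that binds the acyl carrier protein, went the other way from Ndufab1. Ndufa6 stood at 168 CPM in Irf4/Nr4a1+ barcodes of Ga, against 213 CPM in Irf4/Nr4a1- barcodes (log2 ratio -0.35), and at 153 against 199 CPM in Gc (-0.37). Its Irf4/Nr4a1+ level was the lower of the pair in all 5 libraries. Ndufv3 had log2 ratios of -0.23 and -0.26 and Ndufb10 of -0.23 and -0.38 in Ga and Gc. Among the members with the most UMIs, Ndufs4 (0.10 in Ga, 0.08 in Gc) and Ndufb1-ps (-0.03 and 0.00) differed by under 0.32 log2.

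The 8 assembly factors of complex I caught by the rule had a summed log2 ratio of 0.66 in Ga and 0.55 in Gc, with 4 of 8 higher and none lower in each. Of all genes 28.1% (Ga) and 29.5% (Gc) were higher and 33.3% and 29.7% lower, and 8 genes are few for such a comparison. The sum was led by Ndufaf4 (chr4:24898083-24905001, plus strand). It stood at 66.2 CPM in Irf4/Nr4a1+ barcodes of Ga, against 18.6 CPM in Irf4/Nr4a1- barcodes, a log2 ratio of 1.83 (1.68 to 1.98), and at 59.9 against 20.1 CPM in Gc (1.57, 1.44 to 1.71). A UMI of Ndufaf4 was found in 37.4% of Irf4/Nr4a1+ barcodes of Ga, against 13.4% of Irf4/Nr4a1- barcodes. Ndufaf6 had ratios of 0.84 and 0.68, Ndufaf8 of 0.70 and 0.70, and Ndufaf2 of 0.47 and 0.32. Ndufaf3 (0.11 in Ga, -0.17 in Gc) and Ndufaf7, a protein arginine methyltransferase (-0.23 and -0.26), did not pass the threshold.

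**Figure D3:**
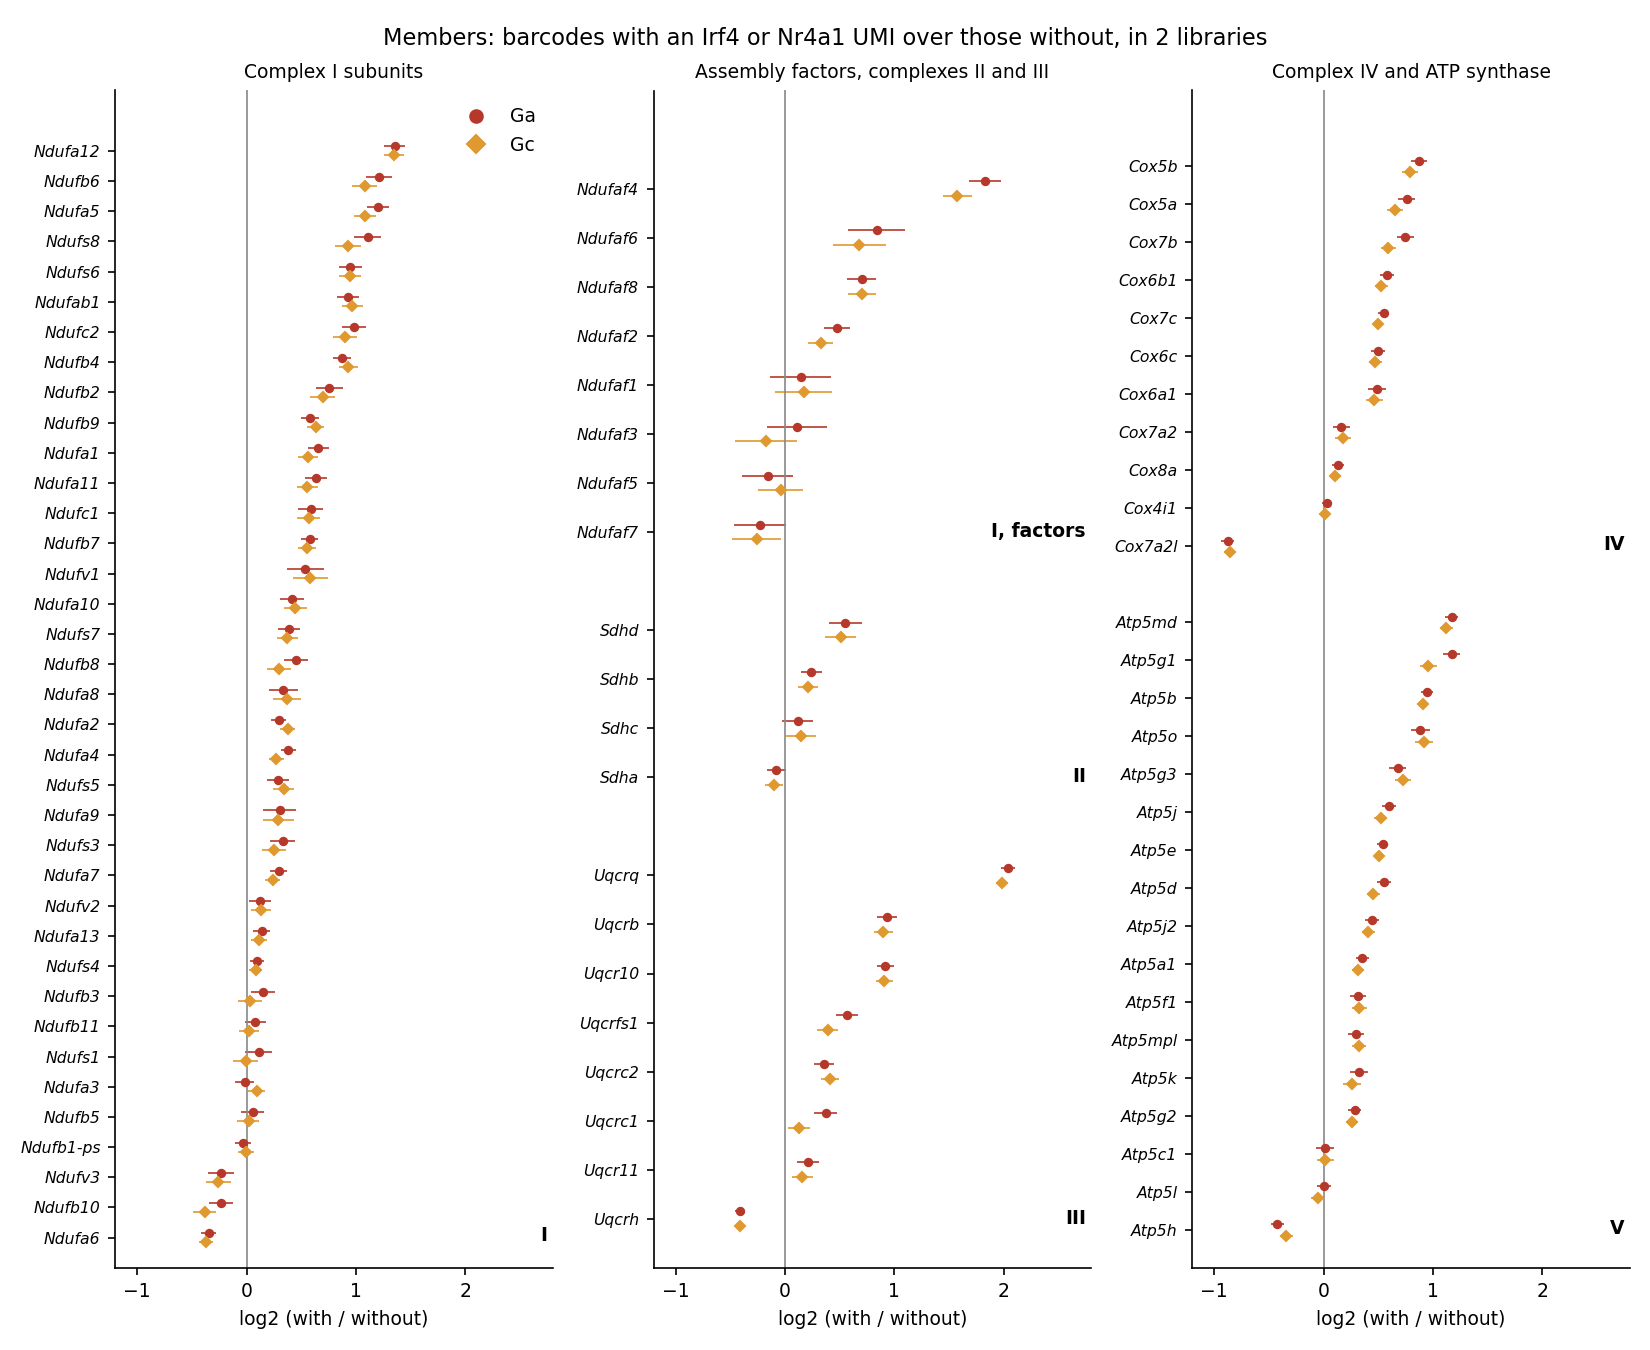
Log2 ratio of CPM (x axis) in Irf4/Nr4a1+ over Irf4/Nr4a1- barcodes for 85 of the 86 members counted often enough, in Ga (circles) and Gc (diamonds), with exact 95% counting intervals and ordered within each complex. Uqcrq at 2.04 and 1.98 and Cox7a2l at -0.87 and -0.85 mark the ends of the range.

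Complex II, succinate dehydrogenase, differed little. Its 4 subunits summed to 272 CPM in Irf4/Nr4a1+ barcodes of Ga, against 249 CPM in Irf4/Nr4a1- barcodes (log2 ratio 0.13), and to 261 against 242 CPM in Gc (0.11). Sdha, the flavoprotein that oxidises succinate, stood at 102 against 108 CPM in Ga and at 101 against 109 CPM in Gc, with ratios of -0.08 and -0.10. The iron-sulfur subunit Sdhb had ratios of 0.24 and 0.21. Of the membrane anchors, Sdhc had 0.12 and 0.15, and Sdhd had 0.55 and 0.51. Sdhd was the 1 subunit of 4 past the threshold, where 28.1% (Ga) and 29.5% (Gc) of all genes were higher.

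Complex III, the cytochrome bc1 complex, had the highest summed ratio of the 5 complexes in both libraries, and 1 gene made most of it. The 8 members summed to 1384 CPM in Irf4/Nr4a1+ barcodes of Ga, against 960 CPM in Irf4/Nr4a1- barcodes (log2 ratio 0.53), and to 1268 against 917 CPM in Gc (0.47). Without Uqcrq the ratios were 0.18 and 0.13. Uqcrq (chr11:53427922-53430831, minus strand) encodes a small subunit named for ubiquinone binding. It stood at 405 CPM in Irf4/Nr4a1+ barcodes of Ga, against 98.6 CPM in Irf4/Nr4a1- barcodes, a log2 ratio of 2.04 (1.98 to 2.10), and at 364 against 92.0 CPM in Gc (1.98, 1.93 to 2.04). The other libraries had 228 against 82.1 CPM (Gb), 179 against 90.7 CPM (Ha) and 111 against 89.8 CPM (Hb). The Irf4/Nr4a1+ level of Uqcrq was thus the higher of the pair in each library, as for 15.3% of genes counted often enough in all 5. A UMI of Uqcrq was found in 77.3% of Irf4/Nr4a1+ barcodes of Ga, against 52.2%, and in 8.54% of the 164 erythroid barcodes. In Gb, 106 of the 259 Irf4/Nr4a1+ UMIs of Uqcrq lay in 1 barcode, and without barcodes above 100000 UMIs the ratio there was 0.85, against 1.47 with them.

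The other complex III members split. Uqcrb and Uqcr10, small subunits, had log2 ratios of 0.93 and 0.92 in Ga and of 0.90 and 0.91 in Gc. The Rieske iron-sulfur subunit Uqcrfs1 had 0.57 and 0.39, and the core proteins had 0.37 and 0.13 (Uqcrc1) and 0.36 and 0.41 (Uqcrc2). Uqcrh, the hinge protein beside cytochrome c1, had the most UMIs of the complex and was lower, at 319 CPM in Irf4/Nr4a1+ barcodes of Ga against 425 CPM in Irf4/Nr4a1- barcodes, and at 307 against 409 CPM in Gc. Both ratios of Uqcrh were -0.41. In Hb its levels were 447 and 442 CPM, so the lower level was not seen in every library.

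Complex IV, cytochrome c oxidase, combined members that were higher with others that were not, among them Cox4i1 and Cox7a2l of many UMIs. In each library 7 of 11 tested members were higher, against 28.1% (Ga) and 29.5% (Gc) of all genes. In each 1 was lower, against 33.3% and 29.7%. Cox7a2 and Cox8a, given below with the isoforms, were neither higher nor lower by the threshold. The 18 genes summed to 2470 CPM in Irf4/Nr4a1+ barcodes of Ga, against 2065 CPM in Irf4/Nr4a1- barcodes (log2 ratio 0.26), and to 2262 against 1960 CPM in Gc (0.21), while the median of the 11 tested members was 0.50 and 0.47. The subunits Cox5b (0.87 and 0.79) and Cox5a (0.76 and 0.65) were higher, as were Cox7b (0.75 and 0.59), Cox6b1 (0.58 and 0.53), Cox7c (0.55 and 0.50), Cox6c (0.50 and 0.47) and Cox6a1 (0.49 and 0.46). Cox4i1, the common form of subunit 4, stood at 376 CPM in Irf4/Nr4a1+ barcodes of Ga, against 367 CPM in Irf4/Nr4a1- barcodes, and at 353 against 350 CPM in Gc. Cox7a2l (chr17:83501918-83517330, minus strand), whose protein joins complexes III and IV in the respiratory supercomplex, had the lowest ratio of the 86 members counted often enough. It stood at 199 CPM in Irf4/Nr4a1+ barcodes of Ga, against 364 CPM in Irf4/Nr4a1- barcodes, a log2 ratio of -0.87 (-0.93 to -0.82), and at 199 against 358 CPM in Gc (-0.85, -0.91 to -0.80). The Cox7a2l levels of the other libraries were 242 against 394 CPM (Gb), 268 against 382 CPM (Ha) and 274 against 401 CPM (Hb). Its Irf4/Nr4a1+ level was the lower of the pair in each library, as for 22.2% of genes counted often enough in all 5.

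**Figure D4:**
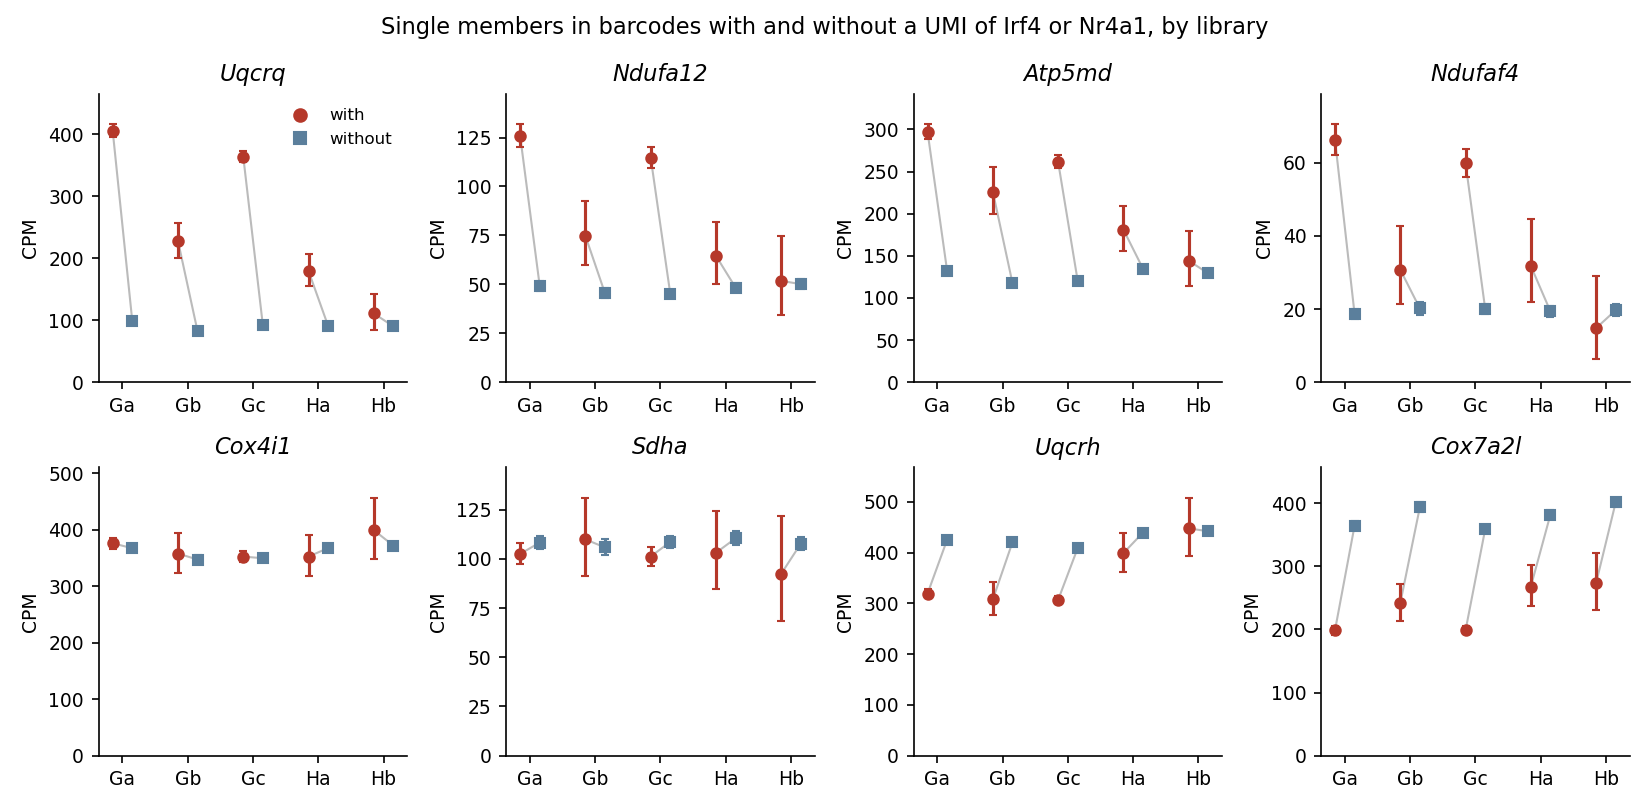
Level (CPM, linear axes from 0) of 8 members in Irf4/Nr4a1+ (circles) and Irf4/Nr4a1- (squares) barcodes of each library, with exact 95% counting intervals. Uqcrq, Ndufa12 and Atp5md are higher in Irf4/Nr4a1+ barcodes of all 5 libraries, Cox4i1 and Sdha differ little, and Cox7a2l is lower in all 5.

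ATP synthase members were higher in both the catalytic head and the membrane rotor. The 17 genes summed to 3579 CPM in Irf4/Nr4a1+ barcodes of Ga, against 2601 CPM in Irf4/Nr4a1- barcodes (log2 ratio 0.46), and to 3292 against 2449 CPM in Gc (0.43). In each library 11 of 17 were higher, against 28.1% (Ga) and 29.5% (Gc) of all genes, and 1 was lower, against 33.3% and 29.7%. Of the catalytic head, the beta subunit Atp5b stood at 315 against 164 CPM in Ga and at 301 against 161 CPM in Gc. The alpha subunit Atp5a1 had a log2 ratio of 0.36 in Ga and 0.32 in Gc, and the gamma subunit Atp5c1 in the central stalk had 0.01 and 0.02. The epsilon subunit Atp5e (0.54 and 0.51) and Atp5o (0.89 and 0.92), which holds the stator to the head, were higher. Atp5md, a small membrane subunit with its upstream window printed above, stood at 297 against 132 CPM in Ga and at 261 against 120 CPM in Gc, over 2-fold higher in both. Another small membrane subunit, Atp5l, had ratios of 0.00 and -0.05. Atp5h, subunit d of the peripheral stalk, was lower, at 195 CPM in Irf4/Nr4a1+ barcodes of Ga against 262 CPM in Irf4/Nr4a1- barcodes and at 191 against 242 CPM in Gc (-0.42 and -0.34).

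Limiting the barcodes to those with a UMI of Cd4 and none of Trdc left 1 member lower by at least 0.32 log2 in Ga and 2 in Gc. The share of all genes lower under this limit was not computed, so the counts describe these members only. The log2 ratio of Cox7a2l was then -0.64 in Ga and -0.72 in Gc and that of Uqcrh -0.31 and -0.35, while Atp5h stood at -0.26 in both and Ndufa6 at -0.20 and -0.31. Uqcrq had ratios of 1.74 and 1.70 under the same limit.

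Several subunits exist as isoforms from separate genes, and these differed in the barcodes where they were found. The c subunit of the rotor ring comes from 3 genes that encode the same mature protein. Atp5g1 stood at 170 CPM in Irf4/Nr4a1+ barcodes of Ga, against 75.3 CPM in Irf4/Nr4a1- barcodes (log2 ratio 1.17), Atp5g3 at 160 against 100 CPM (0.68) and Atp5g2 at 243 against 200 CPM (0.28). In Gc the ratios were 0.96, 0.73 and 0.26 in the same order, so the order of the 3 genes was the same in both libraries. Cox4i2, the form of subunit 4 known from lung and low oxygen, was rare, and 150 of its 191 UMIs lay in the Irf4/Nr4a1+ barcodes of Ga and Gc. It passed the minimum of 100 UMIs only through these sets and had too few UMIs for any count of members, so its values are a description. In Ga 77 UMIs lay in 57 of 1322 Irf4/Nr4a1+ barcodes (4.31%, exact 95% interval 3.28 to 5.55), against 3 UMIs in 3 of 3914 Irf4/Nr4a1- barcodes (0.0766%, 0.0158 to 0.224). In Gc 73 UMIs lay in 61 of 1446 Irf4/Nr4a1+ barcodes (4.22%, 3.24 to 5.39), against 13 UMIs in 13 of 4973 (0.261%, 0.139 to 0.447). Erythroid barcodes held Cox4i2 in 2 of 164 (1.22%, 0.148 to 4.34), an interval that overlaps those of the Irf4/Nr4a1+ sets. The Irf4/Nr4a1+ sets of Gb and Hb held no UMI of Cox4i2 and that of Ha held 1. Thinned to 1500 UMIs per barcode, Cox4i2 had 9 UMIs against 1 in Ga and 7 against 4 in Gc. With only barcodes that held a UMI of Cd4 and none of Trdc, it had 13 UMIs against 2 in Ga and 19 against 6 in Gc.

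The other minor isoforms were found in few barcodes. Cox6a2, the muscle form of subunit 6a, had 19 UMIs in 7 Irf4/Nr4a1+ barcodes of Ga (0.530%, 0.213 to 1.09), against 9 UMIs in 4 Irf4/Nr4a1- barcodes (0.102%, 0.0279 to 0.261). In Gc it had 28 UMIs in 6 Irf4/Nr4a1+ barcodes (0.415%, 0.152 to 0.901), against 12 UMIs in 1 Irf4/Nr4a1- barcode (0.0201%, 0.000509 to 0.112). Like Cox4i2, Cox6a2 passed the minimum of UMIs only through the Irf4/Nr4a1+ sets. It also had too few UMIs for any count of members. Its UMIs lay in few barcodes, with up to 10 in 1 Irf4/Nr4a1+ barcode of Gc, and the sets differed in depth. The intervals therefore cannot decide whether the shares differ, and the values are a description. Erythroid barcodes held Cox6a2 in 2 of 164 (1.22%). In Hb 33 of its 40 UMIs in Irf4/Nr4a1- barcodes lay in 1 barcode. Cox6b2, the testis form, was found in 0.983% of Irf4/Nr4a1+ barcodes of Ga, against 1.10% of Irf4/Nr4a1- barcodes, both below the 7.93% in erythroid barcodes. The muscle form Cox7a1 had 2 UMIs against 15 in Ga and 4 against 28 in Gc, and Cox7a2, the common form, had log2 ratios of 0.16 and 0.18. Cox8a had ratios of 0.14 and 0.11, while Cox8b and Cox8c had no UMI in Irf4/Nr4a1+ barcodes of any library. Cox7b2 had 1 UMI in Irf4/Nr4a1+ barcodes of Ga, against 2 in Irf4/Nr4a1- barcodes, and 1 against 1 in Gc.

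Levels also followed the number of Irf4 and Nr4a1 UMIs in a barcode, in bins chosen after the data were seen. In Ga the members summed to 8899 CPM in 3914 barcodes with 0 such UMIs, 9366 CPM in 412 barcodes with 1, 11362 CPM in 193 barcodes with 2 to 4 and 12713 CPM in 717 barcodes with 5 or more. In Gc the sums in the same order were 8393, 8545, 10118 and 11770 CPM. Uqcrq followed at 98.6, 124, 365 and 538 CPM in Ga, and Cox7a2l ran the other way at 364, 322, 235 and 137 CPM. The mitochondrially encoded sum had no such order, at 20775, 20326.6, 23524.5 and 21168 CPM in Ga and at 21153, 21522, 24049 and 21257 CPM in Gc, highest in the bin of 2 to 4 UMIs in both. Median depth over these bins of Ga was 8410, 8947, 9014 and 11337 UMIs, so depth moved with the bins.

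**Figure D5:**
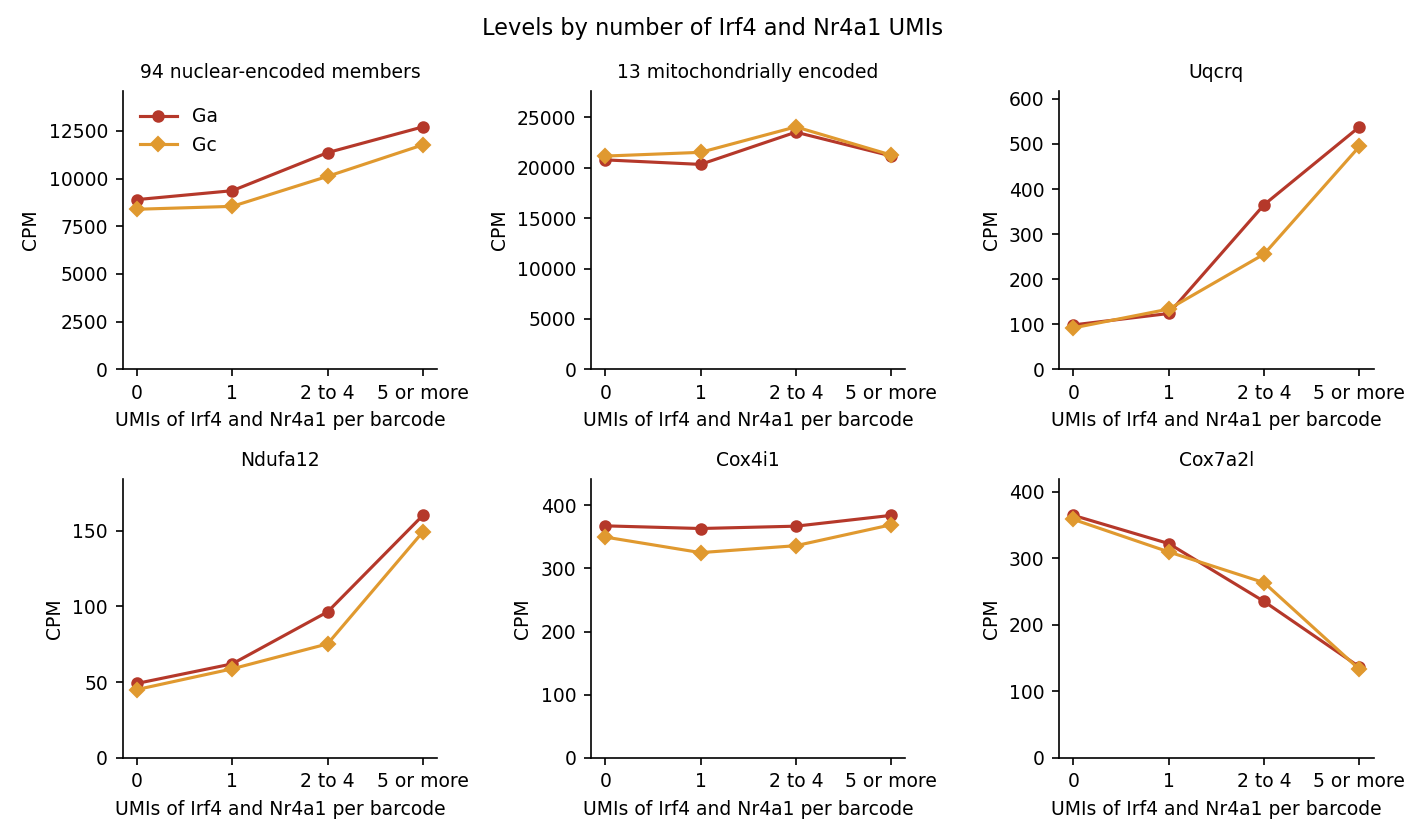
Level (CPM, linear axes from 0) of the 94 members, of the 13 mitochondrially encoded subunits and of 4 members by the number of Irf4 and Nr4a1 UMIs in a barcode (x axis), in Ga and Gc. The 94 members and Uqcrq climb over the 4 bins of Ga and Cox7a2l declines, while the mitochondrially encoded sum is 20775 CPM in the first bin, peaks at 23524.5 CPM in the third and is 21168 CPM in the last.

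The 13 subunits made from the mitochondrial genome had a summed ratio near 0 in these 2 libraries, below that of their nuclear-encoded partners. They summed to 21249 CPM in Irf4/Nr4a1+ barcodes of Ga, against 20775 CPM in Irf4/Nr4a1- barcodes (log2 ratio 0.03, 0.026 to 0.039), and to 21703 against 21153 CPM in Gc (0.04, 0.031 to 0.043). None of the 13 passed the threshold of 0.32 log2 in either library, where 28.1% (Ga) and 29.5% (Gc) of all genes were higher and 33.3% and 29.7% lower. By complex the mitochondrially encoded ratios in Ga were 0.08 (I), 0.18 (III), 0.01 (IV) and -0.04 (V), against 0.37, 0.53, 0.26 and 0.46 for the nuclear-encoded members of the same complexes. In Gb, Ha and Hb the mitochondrially encoded ratios were 0.69, 0.26 and 0.13, above those of Ga and Gc. These rest on the small Irf4/Nr4a1+ sets, and in Gb 2 barcodes above 100000 UMIs held 40.8% of the UMIs of that set. Barcodes above 10% mitochondrial UMIs had been left out, which bounds this sum in each barcode.

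Other mitochondrial gene lists were set beside the members in Ga and Gc, where 28.1% and 29.5% of all genes were higher and 33.3% and 29.7% were lower. Of 78 mitochondrial ribosomal protein genes, which make the machine that translates the mitochondrial genome, 56 (71.8%) were at least 0.32 log2 higher in Irf4/Nr4a1+ barcodes of Ga and 53 (67.9%) in Gc, with summed log2 ratios of 0.62 and 0.57. Of 94 tested cytosolic ribosomal protein genes 21 and 14 were higher (22.3% and 14.9%) and 6 were lower in each, with summed ratios of 0.07 and 0.03. Of 41 tested assembly genes outside the rule 14 and 18 were higher (34.1% and 43.9%) and 3 were lower in each, with ratios of 0.28 and 0.30. The share in Ga was near that of all genes. Cmc2, a complex IV biogenesis factor, stood at 43.1 against 11.7 CPM in Ga, and Surf1, another, at 12.6 against 19.1 CPM. Among 12 carriers of electrons and adenine nucleotides 6 were higher in each library (50%) and 2 and 1 were lower (ratios 0.58 and 0.57). Cytochrome c (Cycs), the carrier between complexes III and IV, stood at 216 CPM in Irf4/Nr4a1+ barcodes of Ga, against 58.3 CPM in Irf4/Nr4a1- barcodes, and at 199 against 55.9 CPM in Gc. The ADP/ATP carrier Slc25a5 stood at 250 against 119 CPM in Ga, and its relative Slc25a4 at 23.0 against 30.6 CPM. Of 13 TCA cycle genes 5 in Ga (38.5%) and 6 in Gc (46.2%) were higher and none was lower (ratios 0.25 and 0.24). Of 12 tested regulators of mitochondrial biogenesis 6 and 5 were higher (50% and 41.7%) and 1 and 2 were lower. Among them Pprc1, a coactivator, stood at 61.1 against 22.8 CPM in Ga, Ppargc1b at 24.2 against 47.8 CPM, and Nrf1 at 232 against 229 CPM.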

How the data were processed

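Single-cell RNA of 5 samples, 1 per group, was measured with the 10x Genomics 5' v2 kit, per the labels' protocols. The deposited values were raw UMI counts per gene and barcode in 2 matrices aggregated by the authors. Per the submitters' processing notes, reads were processed with Cell Ranger 6.0.0 on mm10. A later version, cellranger 7.1.0, stands in the headers of the matrices. Depth equalisation, intron counting and strand use are not given in the sources used here. Barcode suffixes could not be mapped to samples, so libraries stayed unassigned and no test across samples was possible.

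Barcodes were filtered as given in the report, with no doublet caller. UMIs were summed per library and set of barcodes with Python 3.11.15, numpy 2.4.6, scipy 1.17.1 and pandas 2.3.3, scaled to CPM and compared as log2 ratios. Intervals are exact Poisson (levels), Clopper-Pearson (shares) and binomial (ratios). A gene entered a count of members when at least 25 UMIs were expected in the Irf4/Nr4a1+ set, and was called at 0.32 log2 (1.5-fold as the alternative). Promoter motifs were matched as exact letters, apart from a position of the NRF1 motif where any base was allowed. The NRF1 motif, of 10 bases, is given by name. The counting was checked on simulated data. Levels differ in depth: 540819 UMIs stand behind the Irf4/Nr4a1+ set of Hb and 42725410 behind the Irf4/Nr4a1- set of Gc. Gene coordinates come from GENCODE M21 and upstream windows from RefSeq (GRCm38.p6).

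Named were, in each complex, the 3 measured members with the most UMIs and the 3 with the highest and lowest median ratio over the libraries, all of complex II, the isoform families, and 2 assembly factors at each end. Further members and genes of other lists, and the bins of Irf4 and Nr4a1 UMIs, were chosen after their values were seen. Members and lists were chosen with earlier results of these data known. The Trgc1 marker was not found. Some single genes are not reported here.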

Additional observations from a re-analysis of the deposited data

How the results depend on the processing

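The direction of the summed ratio in Ga (0.39 log2) and Gc (0.35) was the same under every alternative tried. With at most 5% mitochondrial UMIs it was 0.38 in Ga and 0.35 in Gb. With at least 2 Cd3 UMIs it was 0.38 in Ga, 0.34 in Gb, 0.33 in Gc and 0.14 in Ha. With barcodes holding a UMI of Cd4 and none of Trdc it was 0.31 (Ga), 0.17 (Gb), 0.25 (Gc), 0.13 (Ha) and 0.13 (Hb). Without the 6% of barcodes with the most UMIs it was 0.00672 (Gb), 0.36 (Gc) and 0.0119 (Ha). Without barcodes with RNA of other cell types it was 0.10 (Gb), 0.36 (Gc) and -0.00306 (Ha, reversed). A denominator without mt- and ribosomal protein genes gave 0.40 (Ga) and 0.35 (Gb), and equal weight per barcode 0.37 (Ga), 0.0746 (Gb), 0.33 (Gc) and 0.0600 (Ha). Thinned to 1500 UMIs, with the division remade and shallower barcodes left out (132, 197 and 96 for Ga, Gc and Gb, and 173 and 113 for Ha and Hb), it was 0.41 (Ga), -0.0670 (Gb, reversed), 0.41 (Gc), 0.0110 (Ha) and -0.0121 (Hb, reversed). At least 2 UMIs of Irf4 and Nr4a1 gave 0.49 (Ga), 0.52 (Gb), 0.45 (Gc) and 0.25 (Ha). Irf4 alone gave 0.44 (Ga), -0.0146 (Gb, reversed), 0.39 (Gc), 0.11 (Ha) and 0.13 (Hb), and Nr4a1 alone 0.42 (Ga), 0.49 (Gb), 0.38 (Gc) and 0.00766 (Hb). Matching for depth gave 0.33 (Gb), 0.35 (Gc) and 0.15 (Ha). Chosen after seeing the data, leaving out barcodes above 100000 UMIs gave 0.14 (Gb), and leaving out Uqcrq 0.35 (Ga) and 0.31 (Gc). The cause of the reversals was not tested.

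Members at least 0.32 log2 higher in Irf4/Nr4a1+ barcodes numbered 45 to 57 in Ga and 40 to 54 in Gc over the alternatives that kept this threshold. Among the alternatives, the share of all genes was computed only for the fold of 1.5, as given above. A fold of 1.5 gave 27 (Ga) and 24 (Gc) higher and 1 lower in each. At 0.32 log2 the limit to Cd4 without Trdc gave 1 (Ga) and 2 (Gc) lower, and matching for depth 3 lower in Gc. The span of the summed level over the libraries (0.20 log2) was 0.17 with that limit, 0.21 without the 6% of largest barcodes, 0.22 without other cell types' RNA, 0.21 with the other denominator, 0.22 without barcodes above 100000 UMIs and 0.19 without Uqcrq. Leaving out 1 library at a time gave 0.11 (without Ga or Gb) to 0.20. No paired analysis was possible because no library could be tied to a sample and each group had 1. The small Irf4/Nr4a1+ sets of Gb, Ha and Hb limit what can be read there.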
